A study of Homo sapiens with 6 samples.

Results

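The RNAs described here are the 35 mRNAs and tRNAs of the human mitochondrial genome, 13 mRNAs and 22 tRNAs, as they were recovered in LARP1 immunoprecipitates and their controls, all made from the free 40S fraction of the HCT116 line. They were picked by Ensembl gene ID and not by a measured value, though with earlier results of these data known. All 35 IDs are among the 60554 gene IDs counted in each library. This is an established human colorectal carcinoma cell line, and the free 40S fraction holds small ribosomal subunits that are not part of assembled ribosomes. The 6 libraries form 3 groups of 2: RNA pulled down with an anti-LARP1 antibody (LARP1 IP), RNA pulled down with control IgG from normal rabbit serum (IgG IP, labelled NRS), and the RNA of the fraction without a pulldown (Input). All 3 groups share the cell line and the fraction, and the labels give no treatment, time or genotype. The sample descriptions call the libraries of a group biological replicates without naming separate cultures, and a p-value here therefore measures only the spread between these libraries, which may be technical. The comparisons ask how these RNAs were recovered with LARP1 relative to the antibody background and to the starting RNA.

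Mitochondrial DNA is transcribed on both strands into long precursor RNAs, from which the tRNAs are cut out and the mRNAs and rRNAs thereby released. The mRNAs encode subunits of 4 respiratory chain complexes and are translated inside the organelle by mitochondrial ribosomes, which carry the mitochondrial rRNAs MT-RNR1 and MT-RNR2. LARP1 is a cytosolic RNA-binding protein known for binding nuclear-encoded mRNAs that start with a terminal oligopyrimidine motif, and the cytosolic small subunit that names the fraction is a separate particle from the mitochondrial one.

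Library totals were 6632952 and 6424655 counts in Input, 7356269 and 8069554 with IgG and 5211809 and 4135463 with anti-LARP1. MT-RNR1 and MT-RNR2 took 88.3% ± 0.54 of the counts in Input, 71.2% ± 0.46 with IgG and 23.95% ± 3.8 with anti-LARP1 (SD over 2 libraries), so counts outside these rRNAs numbered between 752862 and 3823470 per library. The colon epithelial markers EPCAM, KRT8, KRT18 and CDH1 had counts in all 6 libraries. The leukocyte gene PTPRC had at most 1 count, the hepatocyte gene ALB had 0 and the fibroblast gene COL1A1 had 2 to 22.

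Summed over the 13 mRNAs, mitochondrial mRNA was the rarest in the LARP1 IP. The sum was 221029 and 212575 counts in Input, 336136 and 387876 with IgG and 115515 and 58074 with anti-LARP1. Of the counts outside the 2 rRNAs, the mRNAs made up 28.3% ± 1.46 in Input, 16.3% ± 0.84 with IgG and 2.40% ± 0.88 with anti-LARP1 (SD, n = 2 each). The LARP1 IP share was 6.77-fold below that of the IgG IP and 11.8-fold below that of Input, and the libraries of the 3 groups did not overlap. With 2 libraries against 2, the exact two-sided permutation test gave p = 0.333 for each of these 3 differences, the smallest value it can give. All libraries come from the same kind of fraction, with or without a pulldown. The shares therefore give recovery relative to other RNAs, not an amount per cell or organelle.

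The order of the groups depended on the denominator. As a share of all counts, the mRNAs made up 3.32% ± 0.017 in Input, 4.69% ± 0.17 with IgG and 1.81% ± 0.57 with anti-LARP1 (SD, n = 2 each), so the IgG IP then stood above Input. Per 100 counts of the 2 mitochondrial rRNAs, there were 3.76 and 3.77 mRNA counts in Input, 6.45 and 6.72 with IgG and 8.32 and 6.60 with anti-LARP1. On this scale both immunoprecipitates lay above Input and overlapped each other. The exact two-sided permutation p was 0.667 between the immunoprecipitates and 0.333 for each against Input. The mRNAs were thus scarcer in the LARP1 IP than in the IgG IP relative to other genes, while the ranges of their ratio to mitochondrial rRNA overlapped.

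**Figure D1:**
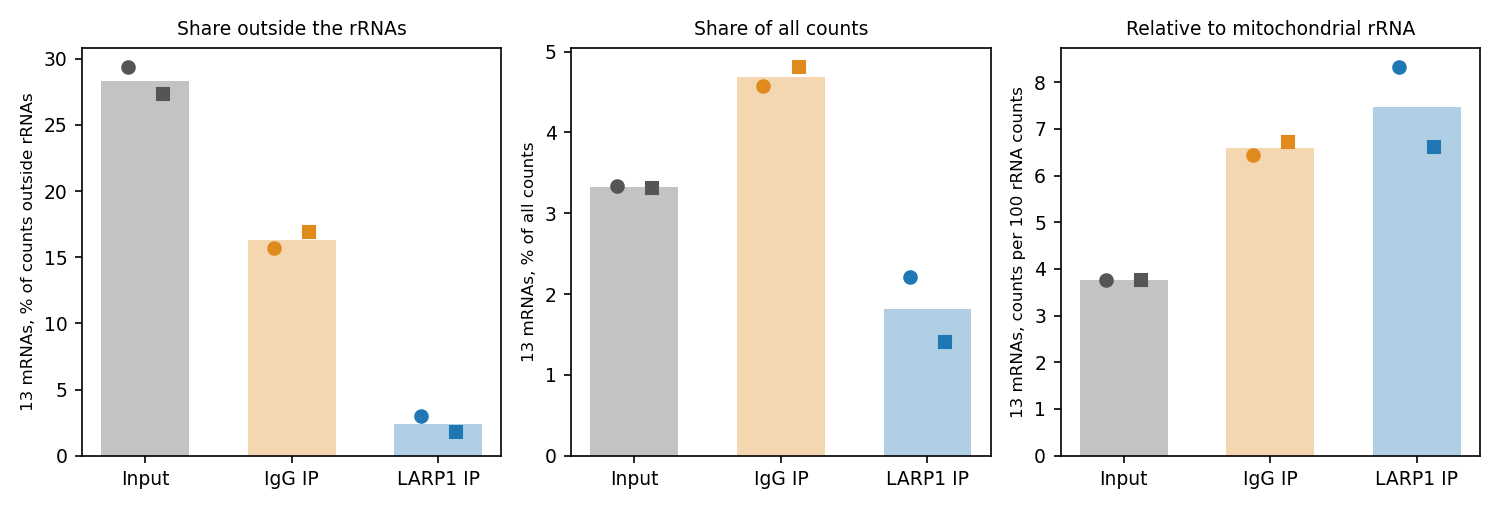
Summed counts of the 13 mitochondrial mRNAs in each library as a percentage of the counts outside MT-RNR1 and MT-RNR2 (left), as a percentage of all counts (middle) and per 100 rRNA counts (right); points are libraries (circle, replicate 1; square, replicate 2) and bars are means of 2 libraries. The LARP1 IP is lowest in the left and middle panels (2.40% and 1.81%), while its libraries at 8.32 and 6.60 overlap the IgG IP at 6.45 and 6.72 in the right panel.

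Levels between genes were compared per kilobase of gene, as CPM (counts scaled to library size after TMM, which sets the bulk of genes equal) divided by the length in the RefSeq annotation of GRCh38.p14. In every library MT-CO2 or MT-ND4 had the highest level of the 13 mRNAs and MT-ND6, the mRNA coded on the light strand, the lowest. The highest level exceeded the lowest by 7.34-fold to 11.95-fold within a library. MT-CO2, for example, stood at 14460 and 11460 CPM per kilobase in Input, 5453 and 5084 with IgG and 1942 and 1904 with anti-LARP1. MT-ND6 stood at 1362 and 1562 in Input, 609.8 and 758 with IgG and 217 and 201 with anti-LARP1. The mean level of the 2 rRNAs was 70.6 to 131 times the median mRNA level. MT-ND5 ranked next to last in 5 of the 6 libraries, and MT-ATP8 in LARP1 IP replicate 2.

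**Figure D2:**
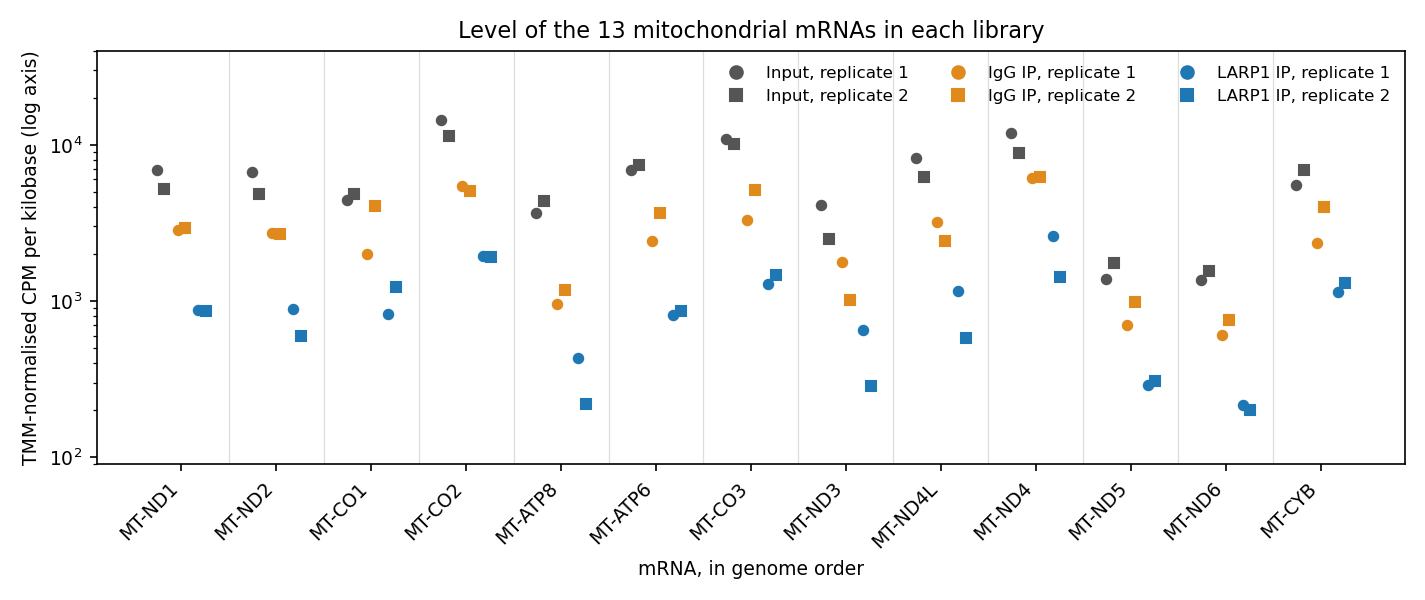
TMM-normalised CPM per kilobase (log axis) of the 13 mitochondrial mRNAs in genome order, with 1 point per library (circle, replicate 1; square, replicate 2). For all 13 mRNAs both LARP1 IP points lie below both IgG IP points, which lie below both Input points, and MT-ND6 is the lowest in every library.

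Tested gene by gene against all 10788 genes that passed a filter on low counts, 12 of the 13 mRNAs were lower in the LARP1 IP than in the IgG IP and all 13 were lower than in Input (edgeR quasi-likelihood test, Benjamini-Hochberg adjusted p under 0.05). Over all tested genes, 2.29% were lower than in the IgG IP and 1.52% lower than in Input. The median log2 fold change of the mRNAs was -1.62 against the IgG IP (range -1.86 to -1.38), beside -0.06 for all genes. Against Input the median was -2.81 (range -3.61 to -2.17), beside 0.03 for all genes. All 13 passed the filter. No mRNA was higher in either comparison, where 8.54% and 4.63% of all genes were. Of 61 genes that were lower than both controls, 12 were mitochondrial mRNAs, 8 were mitochondrial tRNAs and 2 were the mitochondrial rRNAs. Both comparisons use the same LARP1 IP libraries.

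Between the controls, no mRNA was called. The median log2 fold change of the IgG IP against Input was -1.10 with TMM, beside 0.01 for all genes, but 0.40 with scaling to total counts, beside 1.51 for all genes. An unadjusted p below 0.05 was reached by 11 of the 13 mRNAs and by 6.72% of all tested genes, while the adjusted test called 0% of genes. DESeq2 called 4 of the 13 mRNAs lower, beside 0.176% of all genes. With the replicate number as a block, edgeR called 1 lower (MT-ATP8), beside 0.324% of all genes. With scaling to total counts, 12 of the 13 log2 fold changes were above 0 (0.17 to 0.86), all but that of MT-ATP8. The TMM-normalised CPM ranges lay apart, with the IgG IP below Input, for all 13 mRNAs and for 19.3% of all tested genes. For the LARP1 IP below the IgG IP and below Input, the ranges lay apart for all 13, beside 25.9% and 22.8% of tested genes.

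A change of scaling shifts the log2 fold changes of all genes in a comparison by about the same amount. It therefore sets their size but hardly their distance from the median gene, and the likeness of that distance between scalings tests nothing. Against the IgG IP, the mRNA median minus the all-gene median was -1.55 with TMM and -1.55 with total counts. The same distance against Input was -2.84 with TMM and -2.81 with total counts. The number of calls depended on single libraries. Without Input replicate 1 or 2, a single Input library is left, and edgeR then called neither the mRNAs nor any other gene against Input. The loss of these calls is therefore not particular to the mRNAs, whose median log2 fold changes were -2.55 and -2.97. Against the IgG IP, every edgeR fit without 1 library called fewer mRNAs than the fit of all 6, and the fewest without either Input replicate. The number of all genes called lower was also lowest without either Input replicate, though it did not fall in every such fit. The low without an Input replicate is therefore not particular to the mRNAs. The median log2 fold change of the mRNAs in these fits ran from -1.77 (without LARP1 IP replicate 1) to -1.52 (without IgG IP replicate 2).

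**Figure D3:**
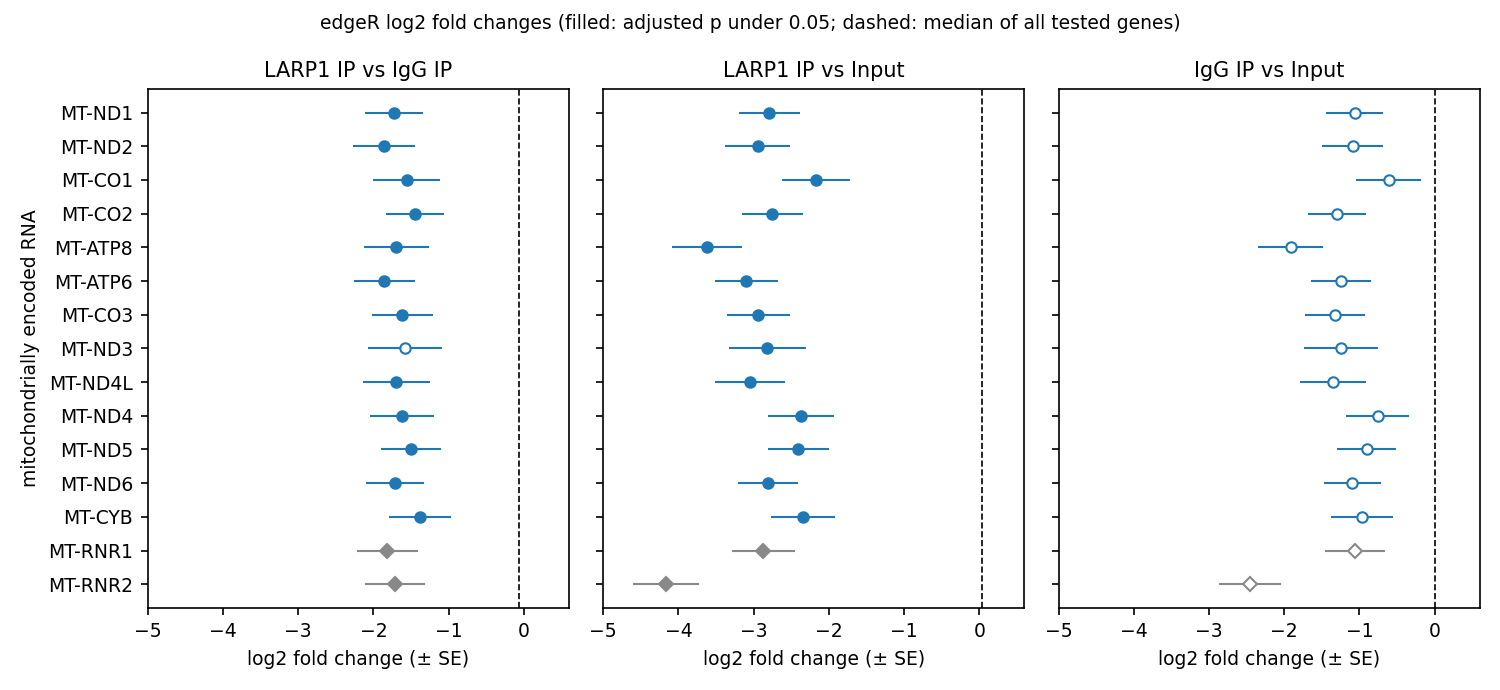
edgeR log2 fold changes (± SE) of the 13 mitochondrial mRNAs (circles) and the 2 mitochondrial rRNAs (grey diamonds) in 3 comparisons; filled symbols have an adjusted p under 0.05 and the dashed line is the median of all 10788 tested genes. The mRNAs cluster between -1.86 and -1.38 against the IgG IP and spread from -3.61 to -2.17 against Input, and no symbol is filled for the IgG IP against Input.

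Complex I, the NADH dehydrogenase that passes electrons from NADH to ubiquinone, takes 7 of its subunits from the mitochondrial genome. Of these 7 mRNAs, 6 were lower in the LARP1 IP than in the IgG IP, with a median log2 fold change of -1.69, and all 7 were lower than in Input, with a median of -2.81. MT-ND4 (ENSG00000198886.2, chrMT:10760-12137), a membrane-arm subunit, had the most counts of any member in all 6 libraries. It had 48966 and 39504 counts in Input, 90815 and 86640 with IgG and 34108 and 10530 with anti-LARP1. Its level was 14344 ± 2944 CPM in Input, 8493 ± 145 with IgG and 2768 ± 1145 with anti-LARP1 (SD, n = 2 each). The LARP1 IP libraries lay below all control libraries, though at 3578 and 1959 CPM they also stood apart from each other. Relative to the IgG IP the decrease was 3.07-fold (log2 fold change -1.62 ± 0.43 SE, edgeR adjusted p = 0.0275), and relative to Input it was 5.18-fold (-2.37 ± 0.44, adjusted p = 0.00606).

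MT-ND4L (ENSG00000212907.2, chrMT:10470-10766) lies just upstream on the same RNA and overlaps the MT-ND4 gene by 7 bases, and the pair is known to be translated from a shared mRNA. It had 7236 and 5948 counts in Input, 10335 and 7253 with IgG and 3283 and 928 with anti-LARP1. Per 1000 MT-ND4 counts, MT-ND4L had 148 and 151 counts in Input, 114 and 83.7 with IgG and 96.3 and 88.1 with anti-LARP1. The ratio was therefore higher in both Input libraries than in any immunoprecipitate, and the 2 immunoprecipitates overlapped. Its log2 fold change was -1.69 ± 0.44 against the IgG IP (SE, edgeR adjusted p = 0.0258), beside -3.05 ± 0.46 for Input (adjusted p = 0.00155).

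MT-ND1 (ENSG00000198888.2, chrMT:3307-4262) and MT-ND2 (ENSG00000198763.3, chrMT:4470-5511), both membrane-arm subunits, follow the rRNA genes on the heavy-strand precursor. MT-ND1 had 19538 and 15971 counts in Input, 29320 and 28232 with IgG and 8001 and 4439 with anti-LARP1. MT-ND2 had 20799 and 16134 counts in Input, 30885 and 27991 with IgG and 8862 and 3356 with anti-LARP1. After scaling, the 2 genes stood close together in every group. MT-ND1 was at 5756 ± 1129 CPM in Input, 2755 ± 65.2 with IgG and 833 ± 9.6 with anti-LARP1. MT-ND2 was at 5993 ± 1392, 2815 ± 54.0 and 777 ± 216 CPM in the same order (SD, n = 2 each). MT-ND1 was 3.31-fold lower in the LARP1 IP than in the IgG IP (edgeR adjusted p = 0.0124) and 6.91-fold lower than in Input (adjusted p = 0.00116). MT-ND2 was 3.62-fold lower than in the IgG IP (adjusted p = 0.0112) and 7.71-fold lower than in Input (adjusted p = 0.00116).

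MT-ND3 (ENSG00000198840.2, chrMT:10059-10404), a small membrane-arm subunit, was the mRNA that missed the threshold against the IgG IP in the fit by group alone. It had 4252 and 2778 counts in Input, 6630 and 3562 with IgG and 2152 and 528 with anti-LARP1. Relative to its level, its CPM ranged more within a group than that of the neighbouring mRNAs MT-CO3 and MT-ND4L. It was 613 and 353 with IgG and 226 and 98.2 with anti-LARP1. The log2 fold change of -1.57 ± 0.49 against the IgG IP (SE, edgeR adjusted p = 0.0572) lay close to the median of the other mRNAs, and the libraries of the 2 groups did not overlap. With the replicate number as a block, MT-ND3 was called against the IgG IP (log2 fold change -1.64, edgeR adjusted p = 0.00243), and all 13 mRNAs were then lower than in the IgG IP, beside 8.43% of all genes, and lower than in Input, beside 5.11%. Against Input, at 1426 and 862 CPM, the log2 fold change was -2.82 ± 0.51 (adjusted p = 0.00560).

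MT-ND5 (ENSG00000198786.2, chrMT:12337-14148), the longest of the 13 genes, and MT-ND6 (ENSG00000198695.2, chrMT:14149-14673) adjoin each other but are coded on opposite strands. MT-ND5 had 7512 and 10273 counts in Input, 13786 and 17901 with IgG and 4982 and 2983 with anti-LARP1. MT-ND6 had 2131 and 2642 counts in Input, 3465 and 4013 with IgG and 1087 and 567 with anti-LARP1. MT-ND6 was lower by a log2 fold change of -1.71 ± 0.39 against the IgG IP (SE, edgeR adjusted p = 0.0124), beside -1.50 ± 0.40 for MT-ND5 (adjusted p = 0.0273). Against Input the values were -2.81 ± 0.40 for MT-ND6 (adjusted p = 0.00111) and -2.41 ± 0.41 for MT-ND5 (adjusted p = 0.00327). Per 1000 MT-ND5 counts, MT-ND6 had 284 and 257 in Input, 251 and 224 with IgG and 218 and 190 with anti-LARP1. The libraries of the 3 groups did not overlap, in the order Input, IgG IP, LARP1 IP. The nearest libraries of neighbouring groups, however, lay closer together than the replicates within a group. The share of all genes with such an order was not determined. Because the treatment of strand in the counting is not given, the MT-ND6 counts may include heavy-strand RNA across the same bases.

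The complex I calls against the IgG IP differed in how often they were made across 21 alternative fits, which changed the scaling, the filter, the tool or the libraries. MT-ND2 was called in all 21, MT-ND1 and MT-ND6 in 20 each, MT-ND4 in 16, MT-ND5 in 15, MT-ND4L in 13 and MT-ND3 in 12. Their log2 fold changes against the IgG IP ran from -2.99 (MT-ND2) to -1.07 (MT-ND3) over these fits. Against Input, all 7 were called in 18 or 19 of the 21, and edgeR without either Input replicate called none.

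Complex III, which carries electrons from ubiquinol to cytochrome c, has a single mitochondrially encoded subunit, cytochrome b. Its mRNA MT-CYB (ENSG00000198727.2, chrMT:14747-15887) had 18893 and 25363 counts in Input, 29052 and 46277 with IgG and 12437 and 8007 with anti-LARP1. In CPM this was 6338 and 7873 in Input, 2684 and 4591 with IgG and 1305 and 1489 with anti-LARP1. MT-CYB had the mildest decrease of the 13 mRNAs against the IgG IP, 2.60-fold (log2 fold change -1.38 ± 0.41 SE, edgeR adjusted p = 0.0481). It was 5.09-fold lower than in Input (-2.35 ± 0.43, adjusted p = 0.00560). The call against the IgG IP was made in 13 of 21 alternative fits, where the log2 fold change ran from -2.56 to -0.93 and the adjusted p reached 0.244. The call against Input was made in 18 of 21, where the log2 fold change ran from -3.34 to -0.65.

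Complex IV, cytochrome c oxidase, holds 3 mitochondrially encoded subunits that form its catalytic core. All 3 mRNAs were lower in the LARP1 IP than in either control, with a median log2 fold change of -1.56 against the IgG IP and -2.75 against Input. MT-CO1 (ENSG00000198804.2, chrMT:5904-7445) encodes the subunit that binds heme and reduces oxygen. It had 20433 and 23874 counts in Input, 33500 and 62991 with IgG and 12213 and 10145 with anti-LARP1. Its CPM was 6855 and 7411 in Input, 3095 and 6250 with IgG and 1281 and 1887 with anti-LARP1. The IgG IP replicates lay further apart than those of the other groups, with replicate 2 near the Input level. MT-CO1 had the mildest decrease of the 13 against Input, 4.503-fold (log2 fold change -2.17 ± 0.45 SE, edgeR adjusted p = 0.0120). It was 2.95-fold lower than in the IgG IP (-1.56 ± 0.44, adjusted p = 0.0381).

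MT-CO2 (ENSG00000198712.1, chrMT:7586-8269), whose product receives electrons from cytochrome c, had 29484 and 25253 counts in Input, 40370 and 35050 with IgG and 12659 and 7001 with anti-LARP1. Its LARP1 IP libraries differed little after scaling, at 1328 and 1302 CPM, beside 3730 and 3477 in the IgG IP. MT-CO2 was 2.74-fold lower than in the IgG IP (edgeR adjusted p = 0.0281) and 6.74-fold lower than in Input (adjusted p = 0.00120). MT-CO3 (ENSG00000198938.2, chrMT:9207-9990) had 25504 and 25621 counts in Input, 27999 and 40597 with IgG and 9615 and 6180 with anti-LARP1. MT-CO3 was 3.06-fold lower than in the IgG IP (adjusted p = 0.0211) and 7.65-fold lower than in Input (adjusted p = 0.00112). Against the IgG IP, the alternative fits called MT-CO2 in 17 of 21, MT-CO3 in 16 and MT-CO1 in 14, with log2 fold changes between -2.80 (MT-CO3) and -0.97 (MT-CO1). Against Input they called MT-CO2 and MT-CO3 in 19 each and MT-CO1 in 18, and edgeR without either Input replicate called none of the 3.

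Complex V, the ATP synthase, takes from the mitochondrial genome 2 subunits of its membrane part, and MT-ATP8 (ENSG00000228253.1, chrMT:8366-8572) overlaps MT-ATP6 (ENSG00000198899.2, chrMT:8527-9207) by 46 bases. Both mRNAs were lower in the LARP1 IP than in either control, and they had the 2 largest decreases of the 13 against Input. MT-ATP8 had 2245 and 2914 counts in Input, 2137 and 2443 with IgG and 856 and 244 with anti-LARP1. In CPM this was 753 and 905 in Input, 197 and 242 with IgG and 89.8 and 45.4 with anti-LARP1. Of the 13 mRNAs, MT-ATP8 had the widest gap between the controls. Its decrease was 12.2-fold against Input (log2 fold change -3.61 ± 0.47 SE, edgeR adjusted p = 0.000935) and 3.25-fold against the IgG IP (-1.70 ± 0.43, adjusted p = 0.0231).

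MT-ATP6 had 14036 and 16300 counts in Input, 17842 and 24926 with IgG and 5260 and 3166 with anti-LARP1. Its decrease was 8.56-fold against Input (log2 fold change -3.10 ± 0.42 SE, edgeR adjusted p = 0.000936) and 3.61-fold against the IgG IP (-1.85 ± 0.40, adjusted p = 0.00988). The 21 alternative fits called MT-ATP6 against the IgG IP in every case and MT-ATP8 in 13, with log2 fold changes from -3.03 (MT-ATP6) to -1.26 (MT-ATP8). Against Input both were called in 19, all but edgeR without either Input replicate. For the IgG IP against Input, the MT-ATP8 log2 fold change was -1.91 ± 0.43 (adjusted p = 0.410). That contrast was called in 6 of 21 alternative fits, where its value ran from -2.10 to -0.42, with an adjusted p of 0.0147 (edgeR) with the replicate block. How reads in the overlap of the 2 genes were assigned is not given in the sources used here.

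The makeup of the mRNA pool was compared next, as each gene's share of the counts of the 13 mRNAs, which does not depend on the scaling. The LARP1 IP and the IgG IP were much alike on this measure. Shares overlapped between them for 12 of the 13 mRNAs, and the log2 ratios of the mean shares ran from -0.29 (MT-ND2) to 0.26 (MT-CYB). The exception was MT-ND6, with 1.03% in both IgG IP libraries and 0.941% and 0.976% in the LARP1 IP. Relative to the same sum, 0.677% of all tested genes had LARP1 IP ranges apart from and below the IgG IP and 78.4% apart and above.

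Against Input, 3 mRNAs had lower shares in the LARP1 IP with no overlap, and they are the consecutive genes MT-ATP8, MT-ATP6 and MT-CO3. MT-ATP8 made up 1.02% and 1.37% of the mRNA counts in Input, 0.636% and 0.630% with IgG and 0.741% and 0.420% with anti-LARP1. MT-ATP6 made up 6.35% and 7.67%, 5.31% and 6.43%, and 4.55% and 5.45% in the same order. MT-CO3 made up 11.5% and 12.1% in Input, 8.33% and 10.5% with IgG and 8.32% and 10.6% with anti-LARP1. The shares of MT-ATP8 and MT-CO3 were also below Input in the IgG IP without overlap, and that of MT-ND4 was above it, at 27.0% and 22.3% beside 22.2% and 18.6%. Of all tested genes, 0.269% had LARP1 IP ranges below Input on this scale and 94.7% above, and 0.955% had IgG IP ranges below Input and 71.2% above.

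An edgeR fit with the summed mRNA counts as library size, an analysis added after the data were seen, called MT-ATP8 lower against Input by a log2 difference of -1.04 ± 0.46 (SE, adjusted p = 0.0372). It called no other mRNA in any comparison, and no mRNA between the LARP1 IP and the IgG IP at an unadjusted p below 0.05 (0 of 13). On this scale, 0.0556% of all genes were lower in the LARP1 IP than in Input and 90.4% higher. Against the IgG IP, 0.13% were lower in the LARP1 IP and 57.3% higher. For the IgG IP against Input, 0.0649% were lower and 12.6% higher. With most genes called in the LARP1 IP against Input, the adjustment hardly raises a p-value there. The unadjusted edgeR p of MT-ATP8 was 0.0331, so its call is close to an unadjusted one. The MT-ATP8 call was not stable: without Input replicate 1 or without Input replicate 2, 0 mRNAs were called lower, and without LARP1 IP replicate 1, 2 were.

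Shares moved between replicates in the same direction in all 3 groups for 10 of the 13 mRNAs, with replicate 2 above replicate 1 for 6 and below for 4. MT-CO1 had the largest upward shift in the immunoprecipitates, from 9.97% to 16.2% in the IgG IP and from 10.6% to 17.5% in the LARP1 IP, and it went from 9.24% to 11.2% in Input. MT-ND3 went from 1.92% to 1.31% in Input, from 1.97% to 0.918% with IgG and from 1.86% to 0.909% with anti-LARP1. For MT-CO1 the gap between replicates exceeded the gap between the group means of the 2 immunoprecipitates, which were 13.1% ± 4.4 and 14.02% ± 4.9 (SD, n = 2 each). By complex, the complex I mRNAs together held 49.96% and 43.9% in Input, 55.1% and 45.3% with IgG and 54.1% and 40.2% with anti-LARP1, so the 3 groups overlapped.

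**Figure D4:**
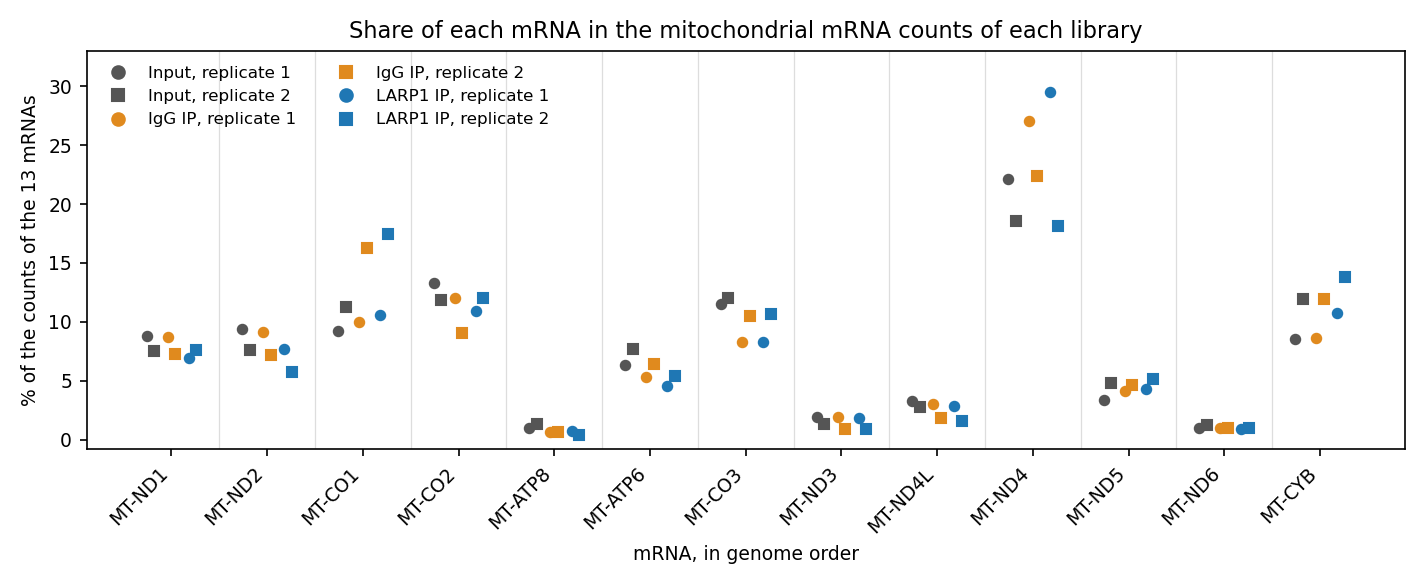
Share of each of the 13 mRNAs in the summed mitochondrial mRNA counts of a library (percent), in genome order, with 1 point per library (circle, replicate 1; square, replicate 2). In the LARP1 IP the replicates of MT-CO1 and MT-ND4 lie further apart than any 2 group means, and the Input shares of MT-ATP8 and MT-CO3 lie above both immunoprecipitates.

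The 22 tRNAs gave few counts, and most of those fell on a handful of genes. Mature tRNAs are short, folded and heavily modified, which standard RNA-seq libraries capture poorly. Their sum was 2864 and 3468 counts in Input, 4312 and 7827 with IgG and 1446 and 1178 with anti-LARP1. As a percentage of the mRNA counts this was 1.30 and 1.63 in Input, 1.28 and 2.02 with IgG and 1.25 and 2.03 with anti-LARP1, so the groups overlapped. Of the 22, 17 passed the count filter. The other 5 (MT-TW, MT-TG, MT-TR, MT-TL2 and MT-TT) had a mean of at most 3 counts and were not tested. MT-TR, which carries arginine, had 0 counts in 5 of the 6 libraries and 2 in IgG IP replicate 2, and a count of 0 allows a level of up to 0.277 to 1.01 CPM (3 counts, counting error only).

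The counts were concentrated on tRNA genes of the light strand, on which 8 of the 22 are coded. MT-TS1 alone held 31.6% to 60.9% of the tRNA counts of a library. Because the treatment of strand in the counting is not given, these counts may include heavy-strand RNA across the same bases. These 8 held 88.1% ± 0.18 of the tRNA counts in Input, 91.7% ± 1.6 with IgG and 90.9% ± 0.52 with anti-LARP1 (SD, n = 2 each). The immunoprecipitates overlapped, and both lay above Input, with an exact two-sided permutation p of 0.333, the smallest possible. Of the 6 tRNAs with the highest mean count, 5 are light-strand: MT-TS1, MT-TN, MT-TE, MT-TY and MT-TC. The sixth, MT-TV, lies between the 2 rRNA genes. All 8 light-strand tRNAs passed the filter, as did 9 of the 14 heavy-strand ones.

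**Figure D5:**
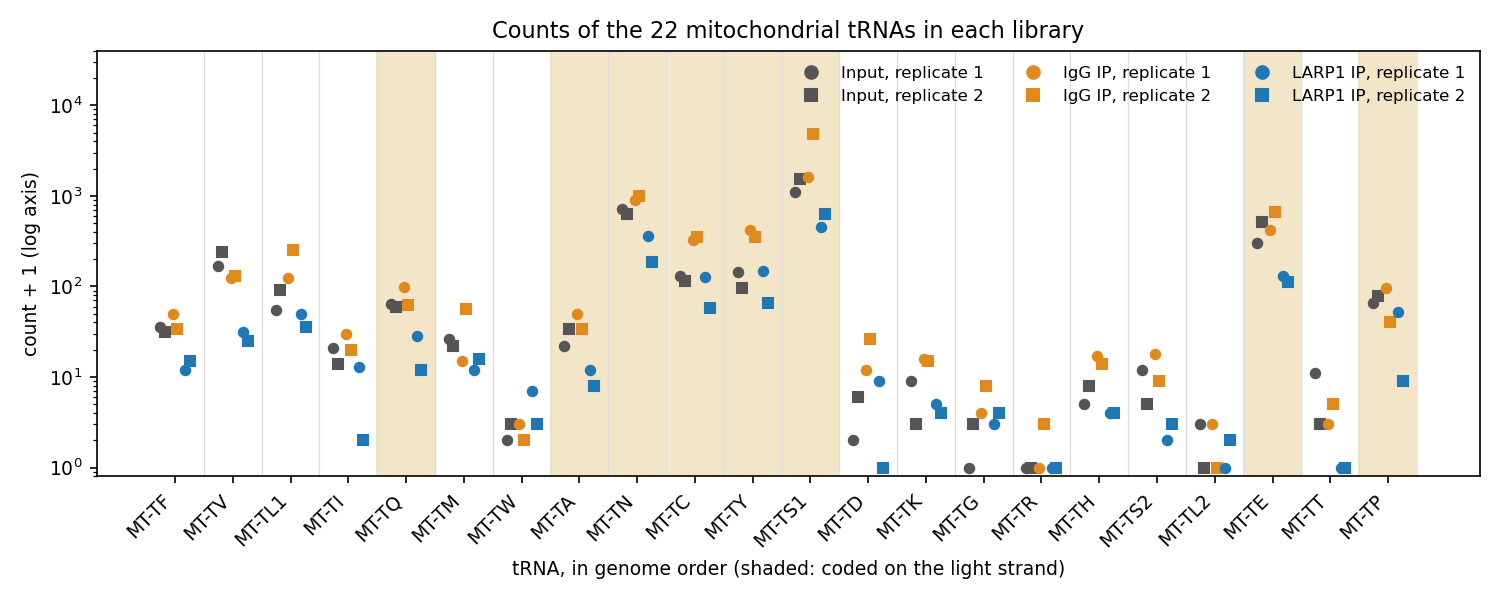
Counts (plus 1, log axis) of the 22 mitochondrial tRNAs in genome order in each library (circle, replicate 1; square, replicate 2), with genes of the light strand shaded. MT-TS1 has the most counts in every library, the 4 highest genes by mean count are all shaded, and MT-TR sits at a count of 0 in 5 libraries.

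Against the IgG IP, 8 of the 17 tested tRNAs were lower in the LARP1 IP, and against Input 12 were, beside 2.29% and 1.52% of all genes. No tRNA was higher in either comparison, and none was called between the IgG IP and Input, where 7 had an unadjusted p below 0.05 and DESeq2 called 2, beside 0.176% of all genes lower. With the replicate block, edgeR called MT-TV and MT-TP lower in the IgG IP than in Input (log2 fold change -2.42 and -2.00, adjusted p = 0.000325 and 0.0118), beside 0.324% of all genes. The median log2 fold change over the 17 was -1.59 against the IgG IP and -2.54 against Input, close to the mRNA medians of -1.62 and -2.81. The tRNAs that passed do not represent all 22, since passing needs counts. The calls depended on single libraries. Against the IgG IP, every edgeR fit without 1 library called fewer tRNAs than the fit of all 6. The number of all genes called lower changed in these fits as well, and was lowest without either Input replicate. The tRNA median log2 fold change in them ran from -1.68 (without LARP1 IP replicate 2) to -1.40 (without IgG IP replicate 2). Against Input, edgeR called neither tRNAs nor any other gene without either Input replicate. It called fewer tRNAs without either LARP1 IP replicate and more without either IgG IP replicate. With scaling to total counts, 1 was called lower against the IgG IP and 2 against Input, beside 75 and 27 of the 10788 tested genes.

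MT-TS1 (ENSG00000210151.2, chrMT:7446-7514), a serine tRNA of the light strand that lies opposite the end of the MT-CO1 transcript, had the most counts of the tRNAs. It had 1091 and 1525 counts in Input, 1597 and 4770 with IgG and 457 and 635 with anti-LARP1. In CPM this was 366 and 473 in Input, 148 and 473 with IgG and 47.9 and 118 with anti-LARP1. The LARP1 IP libraries were below all others, and the IgG IP overlapped Input. The log2 fold change was -1.90 ± 0.57 against the IgG IP (SE, edgeR adjusted p = 0.0469), beside -2.34 ± 0.58 for Input (adjusted p = 0.0290). Because the treatment of strand in the counting is not given in the sources used here, reads of MT-TS1 and of heavy-strand precursor RNA across the same bases cannot be told apart.

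MT-TN, MT-TC and MT-TY, the light-strand tRNAs for asparagine, cysteine and tyrosine, sit in a cluster between MT-ND2 and MT-CO1, from the start of MT-TN to the end of MT-TY at chrMT:5657-5891. MT-TN had 707 and 632 counts in Input, 905 and 996 with IgG and 362 and 183 with anti-LARP1. It was 2.53-fold lower than in the IgG IP (edgeR adjusted p = 0.0397) and 6.01-fold lower than in Input (adjusted p = 0.00171). MT-TC had 131 and 113 counts in Input, 327 and 347 with IgG and 126 and 57 with anti-LARP1. MT-TY had 145 and 95 counts, 417 and 352 counts, and 146 and 64 counts in the same order. Relative to the IgG IP, MT-TC and MT-TY fell, with log2 fold changes of -1.43 ± 0.39 and -1.43 ± 0.41 (SE, adjusted p = 0.0327 and 0.0407).

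Against Input, the decreases of MT-TC and MT-TY were the mildest of the called tRNAs, at -1.72 ± 0.40 (SE, edgeR adjusted p = 0.0213) and -1.51 ± 0.42 (adjusted p = 0.0489). With scaling to total counts they turned to 0.027 and 0.25, beside an all-gene median of 1.75. Between the controls their log2 fold changes were -0.29 and -0.09 with TMM, beside -1.25 for MT-TN in the same cluster. Per 1000 counts of MT-ND2, from which MT-TW, MT-TA and MT-TN separate it, MT-TC had 6.30 and 7.004 in Input, 10.6 and 12.4 with IgG and 14.2 and 17.0 with anti-LARP1. The 3 groups did not overlap on this ratio, in the order Input, IgG IP, LARP1 IP. How many of all genes follow this order was not tested. Per 1000 MT-ND2 counts, MT-TN had 33.99 and 39.17 in Input, 29.3 and 35.58 with IgG and 40.85 and 54.53 with anti-LARP1. There Input and the IgG IP overlapped, and the LARP1 IP lay above both. Per 1000 MT-CO1 counts, MT-TY had 7.096 and 3.979, 12.45 and 5.588, and 11.95 and 6.309 in the same order. All 3 groups overlapped there. Relative to the summed mRNA counts, where the adjustment against Input hardly raises a p-value, the unadjusted edgeR p of MT-TY was 0.0305. In the added fit per summed mRNA count, MT-TY was higher than in Input by a log2 difference of 1.10 ± 0.48 (adjusted p = 0.0345, beside 90.4% of all genes called higher), and no tRNA was called higher without either Input replicate or without either LARP1 IP replicate.

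MT-TE (ENSG00000210194.1, chrMT:14674-14742), the light-strand glutamate tRNA between MT-ND6 and MT-CYB, had 304 and 516 counts in Input, 419 and 665 with IgG and 129 and 110 with anti-LARP1. It was 3.09-fold lower than in the IgG IP (edgeR adjusted p = 0.0325) and 7.74-fold lower than in Input (adjusted p = 0.00201). MT-TQ (ENSG00000210107.1, chrMT:4329-4400), the light-strand glutamine tRNA, had 63 and 58 counts in Input, 97 and 61 with IgG and 27 and 11 with anti-LARP1. MT-TQ was 3.02-fold lower than in the IgG IP (adjusted p = 0.0378) and 7.84-fold lower than in Input (adjusted p = 0.00190).

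The tRNAs next to the rRNA genes had different profiles. MT-TV (ENSG00000210077.1, chrMT:1602-1670), the valine tRNA, is known as a structural component of the large mitochondrial ribosomal subunit in human cells as well as a translating tRNA. It had 167 and 239 counts in Input, 122 and 130 with IgG and 30 and 24 with anti-LARP1. In CPM it stood at 56.0 and 74.2 in Input, 11.3 and 12.9 with IgG and 3.15 and 4.46 with anti-LARP1. It had the largest decrease of the tested members against Input, 17.3-fold (log2 fold change -4.11 ± 0.46 SE, edgeR adjusted p = 0.000935), and was 3.21-fold lower than in the IgG IP (-1.68 ± 0.43, adjusted p = 0.0231). Per summed mRNA count it was also lower than in Input, by a log2 difference of -1.51 ± 0.51 (adjusted p = 0.00868, beside 0.0556% of all genes called lower), a call that was absent without Input replicate 2 or without LARP1 IP replicate 1.

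MT-RNR2 is the rRNA of that large subunit. Its log2 fold change against Input was -4.16 ± 0.44 (SE, edgeR adjusted p = 0.000935), beside -2.87 ± 0.42 for MT-RNR1 of the small subunit (adjusted p = 0.00123). There were 1.91 and 2.06 counts of MT-RNR2 per MT-RNR1 count in Input, 0.751 and 0.752 with IgG and 0.935 and 0.710 with anti-LARP1. Per 1000 MT-RNR2 counts, MT-TV had 0.053 ± 0.014 counts in Input, 0.054 ± 0.0015 with IgG and 0.055 ± 0.015 with anti-LARP1 (SD, n = 2 each), so the groups overlapped. Per 1000 MT-RNR1 counts, it had 0.106 ± 0.033 in Input, 0.040 ± 0.0011 with IgG and 0.044 ± 0.0034 with anti-LARP1, with Input above both. Without Input replicate 1 or 2, edgeR called no gene at all against Input.

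MT-TL1 (ENSG00000209082.1, chrMT:3230-3304), a leucine tRNA, lies on the other side of MT-RNR2 and before MT-ND1. It had 54 and 91 counts in Input, 124 and 252 with IgG and 49 and 35 with anti-LARP1. It was 3.14-fold lower than in the IgG IP (edgeR adjusted p = 0.0411) and lower than in Input by a log2 fold change of -2.00 ± 0.49 (SE, adjusted p = 0.0278). Per 1000 MT-RNR2 counts, MT-TL1 had 0.014 and 0.024 counts in Input, 0.055 and 0.102 with IgG and 0.073 and 0.096 with anti-LARP1. Both immunoprecipitates lay above Input on this ratio, unlike MT-TV. Relative to the downstream MT-ND1, MT-TL1 had 2.76 and 5.70 counts per 1000 in Input, 4.23 and 8.93 with IgG and 6.12 and 7.88 with anti-LARP1, where the IgG IP overlapped both other groups.

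The remaining called tRNAs passed the threshold against Input and not against the IgG IP. MT-TF (ENSG00000210049.1, chrMT:577-647), the phenylalanine tRNA ahead of MT-RNR1, had 35 and 30 counts in Input, 49 and 33 with IgG and 11 and 14 with anti-LARP1, with a log2 fold change of -2.54 against Input (edgeR adjusted p = 0.0123). MT-TA, the alanine tRNA, had 21 and 33, 49 and 33, and 11 and 7 counts in the same order, with a value of -2.81 (adjusted p = 0.00682). MT-TP, the proline tRNA, had 64 and 78, 95 and 39, and 51 and 8 counts, with a value of -2.67 (adjusted p = 0.0150). MT-TI, the isoleucine tRNA, had 20 and 13, 29 and 19, and 12 and 1 counts, with a value of -2.70 (adjusted p = 0.0402). Against the IgG IP, their log2 fold changes were -1.11, -1.67, -0.82 and -1.48 (adjusted p = 0.200, 0.0543, 0.395 and 0.204). With the replicate block, MT-TA was also called against the IgG IP (edgeR adjusted p = 0.0127). Whether the 2 contrasts differ was not tested. Of the tested tRNAs without a call in the fit by group alone, MT-TM, MT-TD, MT-TK, MT-TH and MT-TS2, counts ran from 0 to 56 per library. With the replicate block, edgeR called 14 tRNAs lower against Input, beside 12 in the fit by group alone. Of all tested genes it called 5.11% lower, beside 1.52%.

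Copies of mitochondrial genes in the nuclear genome can take up reads of the members. The 6 copies examined (MTND1P23, MTND2P28, MTCO1P12, MTCO2P12, MTATP6P1 and MTCO3P12) together had 381 to 2875 counts per library, 0.514% to 0.741% of the mRNA counts. Of these 6, 3 were lower in the LARP1 IP than in the IgG IP and 5 were lower than in Input (edgeR adjusted p under 0.05), with median log2 fold changes of -1.71 and -2.74. These medians lay near those of the mRNAs, and how reads that map to several places were handled is not given in the sources used here.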

How the data were processed

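The authors deposited raw read counts per gene, 1 file per library, with no normalization or pooling. The submitters' processing notes list TopHat2 2.1.1 and Bowtie2, featureCounts, Subread 1.20.6, CASAVA 1.8 and the build GRCh38. Libraries came from TRIzol-extracted RNA and a stranded kit used without poly(A) selection, per the labels' protocols. Which annotation release and strand setting were used, and how multi-mapping reads were handled, is not given in the sources used here.

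Groups were taken from the sample titles. Counts were fitted with edgeR 4.0.16 in R 4.3.3: filterByExpr (minimum count 10), TMM, a single quasi-likelihood fit of all 6 libraries with the group as the only term (3 residual degrees of freedom), and Benjamini-Hochberg adjustment over the 10788 genes tested in each comparison, with a threshold of 0.05. SE is the size of a log2 fold change over the root of its F statistic. The fit was tested on simulated data with known fold changes. DESeq2 1.42.0 was an alternative, beside other scalings, filters, library sets, a replicate block and leaving out each library. Per-library values were compared by exact permutation. The files hold no symbols: the 35 members were named by the gene IDs that define them, and the rRNAs, nuclear copies and markers by a hand-written list of IDs. Coordinates and lengths come from RefSeq (GRCh38.p14), and strands are textbook background. All 13 mRNAs are named, the 6 tRNAs with the highest mean count and every tRNA past the threshold. The members, lists and alternatives were chosen with earlier results of these data known. The labels number the replicates without saying what a number stands for. Over genes, the replicate differences of 2 groups correlated at 0.292 (Input and IgG IP), 0.127 (Input and LARP1 IP) and 0.537 (IgG IP and LARP1 IP). The fit with the replicate number as a block is therefore given where it changes the call of a named member, and otherwise as a number of calls. Counts within a group differed by more than sampling noise (chi-square per degree of freedom 4.73 to 29.7), so each library counts as 1 replicate. A list of mitochondrial RNA maturation factors was not analysed here, since no table used here pairs their symbols with the IDs.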

Additional observations from a re-analysis of the deposited data

How the results depend on the processing

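With 2 libraries per group, the calls rest on a spread shared by all groups, and no external standard gives absolute recovery. Leaving out each library in turn, with edgeR or DESeq2, gave 3 to 13 mRNAs lower and 0 to 7 tRNAs called for the LARP1 IP against the IgG IP, and 0 to 13 mRNAs lower and 0 to 14 tRNAs called against Input. For the IgG IP against Input it gave 0 to 5 mRNAs lower and 0 to 2 tRNAs called. Each fit without 1 library leaves a single library in a group, and the number of all genes called lower changed in these fits as well. For the LARP1 IP against the IgG IP, fitting only the 4 libraries compared gave 4 mRNAs and 1 tRNA lower. In that fit 80 of 10654 tested genes were lower. For the IgG IP against Input, such a fit gave 1 tRNA lower, beside 8 of 9802 tested genes. Scaling to total counts called 1 tRNA lower against the IgG IP, beside 75 of the 10788 tested genes. Against Input it called 8 mRNAs and 2 tRNAs lower, beside 27 of all tested genes. For the IgG IP against Input it called 1 mRNA and 2 tRNAs higher. Against Input it turned the log2 fold changes of MT-TC (0.027) and MT-TY (0.25) in the LARP1 IP, beside an all-gene median of 1.75. For the IgG IP against Input it turned those of 12 of 13 mRNAs (0.17 to 0.86) and 10 of the 12 named tRNAs (0.11 to 1.45). Of these, MT-CO1 (0.86), MT-TC (1.23) and MT-TY (1.45) were called higher, beside 5808 of the 10788 tested genes. The all-gene median of 1.51 lay above these 3 values. Totals without the rRNAs called 17 tRNAs lower against the IgG IP, beside 3992 of the 10788 tested genes and an all-gene median of -1.24. For the IgG IP against Input, DESeq2 called 4 mRNAs and 2 tRNAs lower, beside 19 of the 10788 tested genes. Without a low-count filter, edgeR called 1 of each lower, beside 17 of 24232 tested genes. The cause of these shifts was not tested. The log2 ratio of the summed mRNA shares was -1.37 (LARP1 IP against IgG IP), -0.88 (against Input) and 0.50 (IgG IP against Input) over all counts, and -1.03 for the last outside every mitochondrial gene.

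With the replicate block, edgeR called 13 mRNAs lower and 9 tRNAs against the IgG IP, 13 and 14 against Input, and 1 and 2 for the IgG IP against Input. Of all tested genes, 8.43%, 5.11% and 0.324% were lower in the same order. Among the named members the block added the calls of MT-ND3 and MT-TA against the IgG IP. For the IgG IP against Input it added those of MT-ATP8, MT-TV and MT-TP, and it changed no other call. The maturation-factor list was not run.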
